A study of Mus musculus with 11 samples.

Results

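The genes described here are 32 mouse genes of sterol and fatty acid synthesis, measured by RNA sequencing in RAW cells, a mouse macrophage line. They were chosen by name from 52143 genes, with earlier results of these data known. They comprised 18 enzymes of the route that ends in cholesterol, and 8 enzymes of fatty acid synthesis, elongation and desaturation. The other 6 were genes of sterol sensing and transport (Srebf1, Srebf2, Scap, Insig1, Insig2 and Stard4). All 32 were found once, and all 32 passed the filter on low values. GIV, also called Girdin, is the product of Ccdc88a. The groups were cells with a short hairpin RNA against GIV (shGIV) after 5 h of lipopolysaccharide (LPS, a bacterial outer membrane component) at 100 ng/ml with 3 libraries, shGIV cells at 0 h with 3 libraries, cells with a control hairpin (shC) after 5 h of the same LPS with 1 library, and shC cells at 0 h with 2 libraries. All cells carried a hairpin. The labels do not state whether each line was a pool or a clone, or whether replicates were separate cultures, so the p-values measure the spread between these libraries, which may be technical.

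Cells build cholesterol from acetyl-CoA through mevalonate, squalene and lanosterol, and they build fatty acids from the same acetyl-CoA. The genes of both routes are targets of the SREBP transcription factors, which Srebf1 and Srebf2 encode. When sterols are scarce, Scap carries SREBP from the endoplasmic reticulum to the Golgi, where it is cleaved and freed to enter the nucleus, and when sterols are plentiful the Insig proteins hold Scap back. In macrophages, toll-like receptor ligands are known to change this programme, and oxysterols such as 25-hydroxycholesterol repress it.

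Values are in TPM, a relative abundance that is scaled by transcript length and adds up to the same total in every library, so the depth behind them is unknown. A further control library at 0 h, replicate 2, was left out by the rule that chose the genes. Its members stood at a median of 15.8% of the mean of the other 2 control libraries at 0 h, with a range of 4.79% to 43.4%, against a median of 16.4% for all genes. Numbers of genes called, medians, sums and correlations that rest on its absence are given with it as well. A second control library with LPS, replicate 3, was not analysed here, so every comparison that involves control cells with LPS rests on 1 library. Ccdc88a, the targeted gene, read 3.08, 2.62 and 3.39 TPM in GIV-depleted cells with LPS, 6.93, 5.31 and 5.58 TPM in GIV-depleted cells at 0 h, 5.77 TPM in control cells with LPS, and 10.0 and 7.69 TPM in control cells at 0 h. Its log2 difference of depleted from control cells was -0.75 ± 0.19 (SE) with LPS and -0.50 ± 0.15 at 0 h, neither past the threshold of 0.05 (limma adjusted p = 0.0681 and 0.232). All 8 macrophage markers were at or above 1 TPM in every library, and 22 of 23 markers of fibroblasts, epithelium, T cells, B cells, adipocytes and hepatocytes were below 1 TPM in every library, the 3 adipocyte and 3 hepatocyte markers among them. The exception was the T cell kinase gene Lck, and the summed T cell markers were 26.1 to 32.9 TPM in depleted cells with LPS, 8.06 to 8.80 TPM in depleted cells at 0 h, 31.7 TPM in control cells with LPS, and 6.18 to 7.29 TPM in control cells at 0 h. The summed macrophage markers were 9648 to 9950 TPM in depleted cells with LPS, 16829 to 17395 TPM in depleted cells at 0 h, 11909 TPM in control cells with LPS, and 18184 to 18506 TPM in control cells at 0 h. Lyz2, the lysozyme gene, made most of that sum, and the markers did not move together: 5 of the 8 were higher in every depleted library with LPS than in every depleted library at 0 h and 3 were lower, with 4 higher and 4 lower in control cells. Whether these shifts have a part in the results on lipid genes was not tested. In bulk RNA, fewer cells of a type and less RNA per cell cannot be told apart.

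RefSeq promoter windows were available for 25 of the 32 members (33 windows, build GRCm38.p6). Of these windows 4 are printed, from members of both routes and from a regulator. The windows are the 250 bases before the annotated start. Capitals mark, on either strand, the sterol regulatory element TCACNCCAC, the CCAAT box CCAAT, the E-box CACGTG and the GC box GGGCGG. Of these motifs, the Fasn window held the CCAAT box only, and the Lss window the CCAAT box and the GC box. Hmgcs1 (chr13:119690101-119690350, plus strand), on the mevalonate route, is shown because it was the only member with the sterol regulatory element in its window. Lss (chr10:76531355-76531604, plus strand), which makes lanosterol, is shown as 1 of the 3 members whose response to LPS differed between the lines, Fasn (chr11:120824548-120824797, minus strand) as the fatty acid synthase, and Insig1 (chr5:28071162-28071411, plus strand) as the sensor gene that passed the test in the comparison of the lines with LPS.
Hmgcs1: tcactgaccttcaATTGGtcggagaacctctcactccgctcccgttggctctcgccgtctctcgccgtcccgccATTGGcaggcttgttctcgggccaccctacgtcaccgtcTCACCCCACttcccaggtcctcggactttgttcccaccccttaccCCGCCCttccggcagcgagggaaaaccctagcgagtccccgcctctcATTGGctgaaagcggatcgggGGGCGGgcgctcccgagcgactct
Lss: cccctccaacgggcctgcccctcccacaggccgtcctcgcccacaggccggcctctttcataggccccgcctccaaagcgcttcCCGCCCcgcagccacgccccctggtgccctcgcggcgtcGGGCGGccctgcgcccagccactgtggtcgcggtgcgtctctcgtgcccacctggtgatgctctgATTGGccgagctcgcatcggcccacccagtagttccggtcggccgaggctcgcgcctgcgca
Fasn: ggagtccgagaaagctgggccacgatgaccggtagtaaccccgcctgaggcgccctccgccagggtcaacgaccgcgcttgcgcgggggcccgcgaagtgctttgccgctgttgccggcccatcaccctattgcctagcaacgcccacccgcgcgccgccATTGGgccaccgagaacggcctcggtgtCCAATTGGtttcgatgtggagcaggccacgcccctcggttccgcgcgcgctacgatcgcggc
Insig1: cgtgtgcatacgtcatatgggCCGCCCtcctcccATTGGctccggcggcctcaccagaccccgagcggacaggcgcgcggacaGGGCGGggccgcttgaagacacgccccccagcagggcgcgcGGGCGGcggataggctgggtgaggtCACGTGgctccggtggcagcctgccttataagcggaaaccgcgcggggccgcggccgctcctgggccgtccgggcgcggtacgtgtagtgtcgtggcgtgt

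Among the 33 member windows, 20 (60.6%) held a CCAAT box and 24 (72.7%) a GC box, against 33.9% and 32.7% of all 32851 promoter windows of the same length. The E-box was in 5 member windows (15.2%), against 6.02% of all windows, and the sterol regulatory element was in 1 (3.03%), against 1.05%. No match overlapped a match of a different motif, and in Fasn a pair of CCAAT matches on opposite strands overlap. A match describes these letters only, and no match in a window says nothing about binding.

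At 0 h the members ranged widely in level. Over the 5 resting libraries of both lines, Fdps, which makes farnesyl diphosphate, had the highest mean at 507 TPM. It was followed by the stearoyl-CoA desaturase Scd2 at 278 TPM, the delta-6 desaturase Fads2 at 253 TPM, the delta-5 desaturase Fads1 at 154 TPM and the sterol methyl oxidase Msmo1 at 153 TPM. The elongase Elovl6 was lowest at 12.4 TPM, and the median member was at 49.8 TPM.

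**Figure D1:**
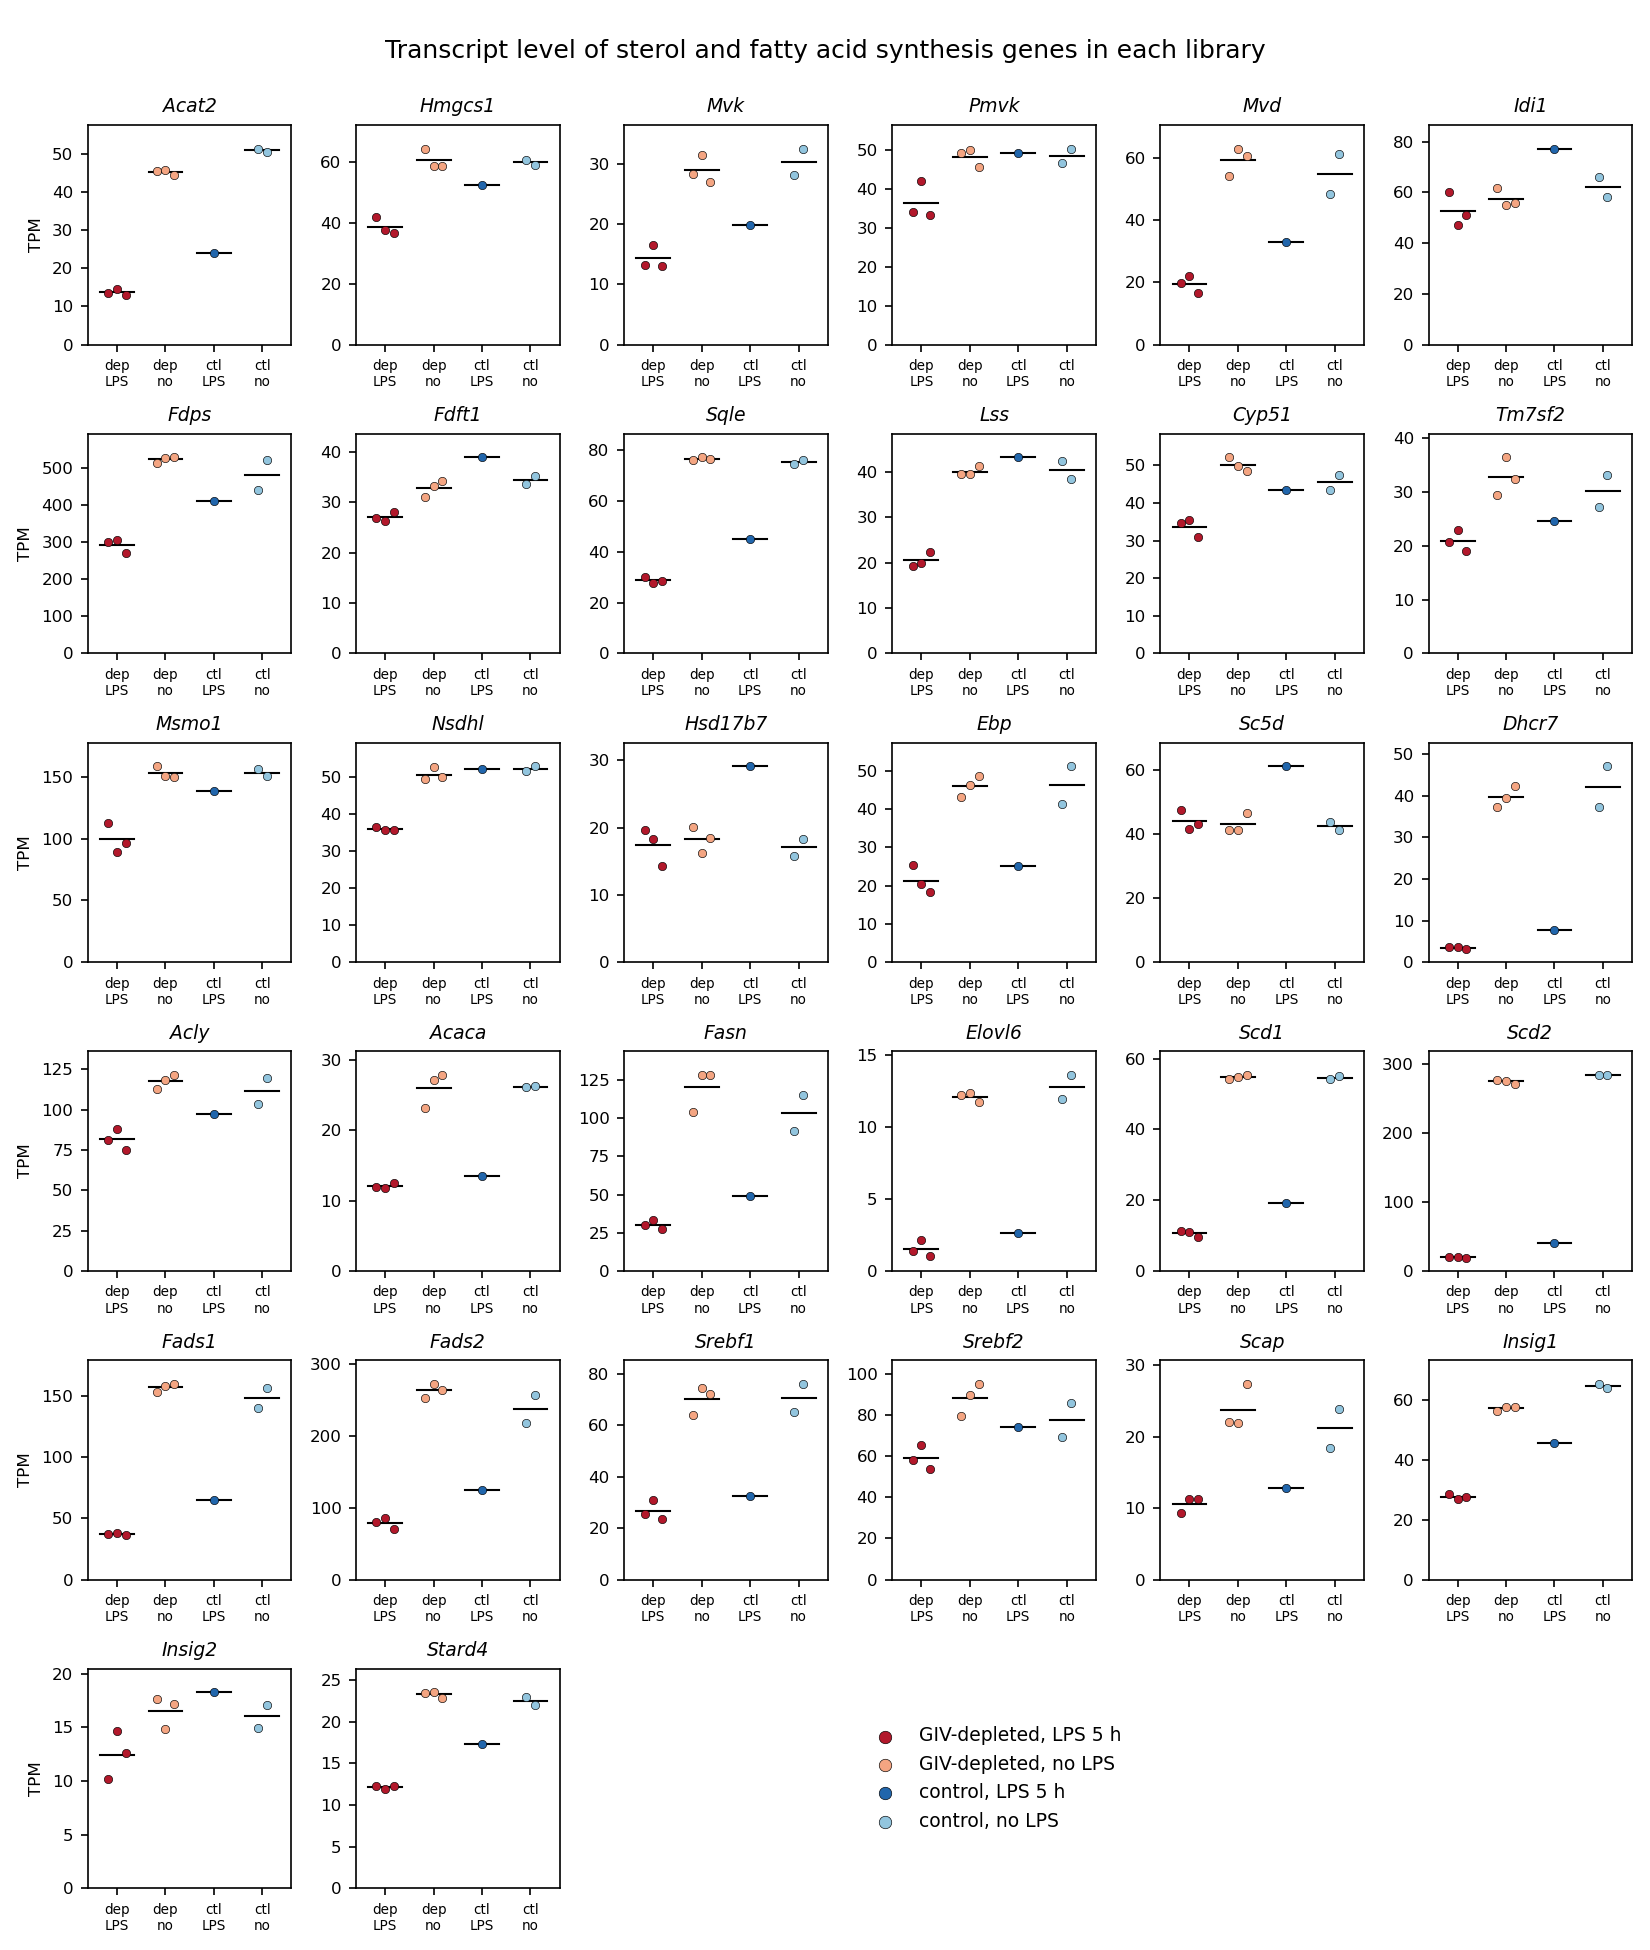
Level in TPM of each of the 32 members in each library, with GIV-depleted cells (dep) with LPS, GIV-depleted cells at 0 h (no), control cells (ctl) with LPS and control cells at 0 h from left to right; points are libraries and short lines are group means. Scd2 was at 18.03 to 20.4 TPM in depleted cells with LPS and 270.5 to 276.8 TPM in depleted cells at 0 h, and Lss stood at 43.3 TPM in the 1 control library with LPS.

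With LPS, most of these genes were lower in GIV-depleted cells than at 0 h. Of the 32 members, 29 passed the test lower and 0 passed it higher (limma, Benjamini-Hochberg adjusted p under 0.05), against 59.7% of all 13711 genes lower and 15.8% higher. The median change of the members was -0.95 log2 units, against -0.54 for all genes tested, and 24 of the 32 lay below that all-gene median. Fatty acid enzymes had the largest losses, with all 8 lower, and all 6 regulators, 6 of 7 mevalonate enzymes, all 3 enzymes from squalene to lanosterol and 6 of 8 from lanosterol to cholesterol were lower. Idi1 (isopentenyl diphosphate isomerase), Hsd17b7 (a sterol ketone reductase) and Sc5d (a sterol desaturase) did not pass.

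Among the fatty acid genes, Scd2 read 20.2, 20.4 and 18.03 TPM in depleted cells with LPS, against 276.8, 275.0 and 270.5 TPM in depleted cells at 0 h. That put the mean with LPS at 7.13% of the level at 0 h, with no overlap of the groups. Its log2 change was -3.75 ± 0.06 (SE, limma adjusted p = 3.38e-09). The share of all genes whose groups did not overlap in this comparison is not given here. Since 59.7% of all genes were called lower, separate groups are not read as particular to these members. Elovl6, which elongates palmitate, read 1.38, 2.14 and 1.009 TPM with LPS, against 12.2, 12.4 and 11.7 TPM at 0 h, or -2.41 ± 0.16 log2 units (limma adjusted p = 3.40e-06). Scd1, the other stearoyl-CoA desaturase measured, read 11.4, 11.1 and 9.44 TPM with LPS, against 54.1, 54.7 and 55.4 TPM at 0 h. Its 3 libraries with LPS all lay far below those at 0 h, at 19.4% of the resting mean, and the log2 change was -2.27 ± 0.07 (limma adjusted p = 8.83e-08). Fads1 read 37.6, 37.7 and 36.0 TPM with LPS, against 153.3, 158.2 and 160.1 TPM at 0 h, a log2 change of -2.05 ± 0.06 (limma adjusted p = 3.96e-08). Fasn, which makes palmitate, read 29.8, 33.4 and 27.3 TPM with LPS, against 104.1, 128.3 and 128.5 TPM at 0 h. The Fasn groups did not overlap either, and the change was -1.96 ± 0.12 (limma adjusted p = 2.90e-06). Fads2 fell by 1.72 ± 0.09 log2 units to 30.1% of its level at 0 h (limma adjusted p = 1.06e-06). The smallest changes of this group were those of Acly and Acaca, at -0.53 ± 0.08 and -1.05 ± 0.08. Acly, ATP citrate lyase, was at 75.1 to 88.1 TPM with LPS, against 112.9 to 121.7 TPM at 0 h, and Acaca, acetyl-CoA carboxylase, was at 11.8 to 12.5 TPM with LPS, against 23.1 to 27.9 TPM at 0 h.

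In the sterol route the last step had the largest change. Dhcr7, which reduces 7-dehydrocholesterol to cholesterol, read 3.67, 3.63 and 3.14 TPM in depleted cells with LPS, against 37.3, 39.4 and 42.4 TPM in depleted cells at 0 h. No library with LPS came near those at 0 h, and the log2 change was -3.18 ± 0.10 (limma adjusted p = 8.83e-08). Acat2, the cytosolic acetoacetyl-CoA thiolase that opens the route, read 13.4, 14.7 and 13.1 TPM with LPS, against 45.6, 45.8 and 44.6 TPM at 0 h, or -1.65 ± 0.06 log2 units (limma adjusted p = 1.34e-07). Mvd, mevalonate diphosphate decarboxylase, read 19.9, 22.0 and 16.5 TPM with LPS, against 54.4, 63.1 and 60.7 TPM at 0 h, or -1.57 ± 0.13 log2 units (limma adjusted p = 1.09e-05). Sqle, squalene epoxidase, read 30.1, 27.9 and 28.4 TPM with LPS, against 76.0, 77.2 and 76.6 TPM at 0 h, or -1.38 ± 0.05 log2 units (limma adjusted p = 1.52e-07). In each of these genes the groups were separate. The share of all genes with separate groups is not given for this comparison, so this too is not read as particular to them. Ebp, the sterol isomerase, fell by 1.09 ± 0.13 log2 units (limma adjusted p = 1.01e-04). The remaining sterol enzymes changed by -0.97 (Mvk, mevalonate kinase) to 0.03 (Sc5d), with Idi1 at 60.3, 47.1 and 51.1 TPM with LPS, against 61.6, 54.8 and 55.8 TPM at 0 h.

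The regulators were also lower with LPS in depleted cells. Srebf1 read 25.5, 30.8 and 23.5 TPM with LPS, against 63.8, 74.5 and 72.0 TPM at 0 h, a log2 change of -1.37 ± 0.11 (limma adjusted p = 1.43e-05). Scap read 9.37, 11.2 and 11.3 TPM with LPS, against 22.0, 21.9 and 27.4 TPM at 0 h, a log2 change of -1.09 ± 0.13 (limma adjusted p = 1.17e-04). Insig1 read 28.7, 27.0 and 27.5 TPM with LPS, against 56.3, 57.9 and 57.8 TPM at 0 h, a log2 change of -1.02 ± 0.05 (limma adjusted p = 6.42e-07). For all 3 the libraries with LPS lay below every library at 0 h, in a comparison where 59.7% of all genes were called lower. Srebf2 changed less, at -0.57 ± 0.11 (limma adjusted p = 0.00199), and Insig2 by -0.39 ± 0.13 (limma adjusted p = 0.0260). With another scaling, trimmed-mean (TMM) factors, Srebf2 was at 0.012 and Insig2 at 0.16, and with quantile normalization Insig2 was at 0.20, so the direction of these 2 depends on the scaling. Insig2 also missed the threshold in 4 of the fits that left out 1 library, with an adjusted p of up to 0.0799. Stard4, a sterol transfer protein, was at 11.9 to 12.3 TPM with LPS, against 22.9 to 23.5 TPM at 0 h.

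The all-gene median change with LPS in depleted cells was -0.54 on the deposited scale, -0.06 with TMM and -0.15 with quantile normalization, and in control cells it was -0.40, -0.02 and -0.13. In depleted cells, 19 members were lower and 4 higher with TMM (Hsd17b7, Idi1, Sc5d and Fdft1), against 35.6% of all genes lower and 31.4% higher. Quantile normalization gave 25 lower and 3 higher, against 40.3% and 27.5%. Of the 29 genes lower on the deposited scale, 7 had a change above 0 with TMM and 2 with quantile normalization. Fdft1 was the one that was then called higher, at 0.30 with TMM and 0.17 with quantile normalization (limma adjusted p = 0.00429 and 0.0397), against -0.27 ± 0.06 on the deposited scale. When all 10 libraries entered the fit, 5 members were lower (Scd1, Scd2, Fasn, Elovl6 and Dhcr7), and 0 higher, against 10.4% and 5.64% of all genes.

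**Figure D2:**
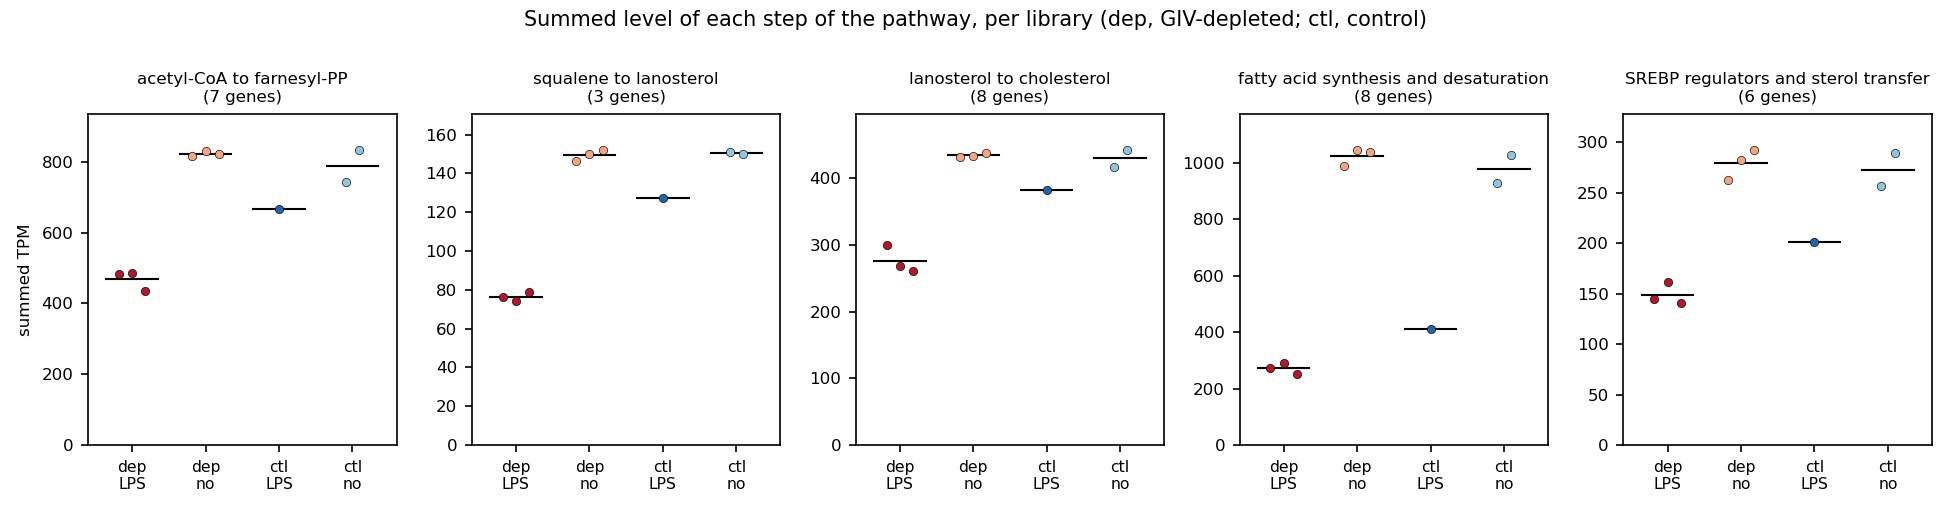
Summed TPM per library of the members of each of 5 roles, with GIV-depleted cells (dep) with LPS, GIV-depleted cells at 0 h (no), control cells (ctl) with LPS and control cells at 0 h from left to right; points are libraries and short lines are group means. The 8 fatty acid enzymes came to 250.1 to 290.6 TPM in depleted cells with LPS and 410.3 TPM in the 1 control library with LPS, and in each panel the depleted libraries with LPS are the lowest.

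Summed over all members, the level came to 1166 to 1280 TPM in depleted cells with LPS, against 2647 to 2744 TPM in depleted cells at 0 h, and to 1787 TPM in control cells with LPS, against 2496 to 2743 TPM in control cells at 0 h. By route, fatty acid enzymes came to 250.1 to 290.6 TPM in depleted cells with LPS, against 989 to 1046 TPM in depleted cells at 0 h, and to 410.3 TPM in control cells with LPS, against 929 to 1026 TPM in control cells at 0 h. Sterol enzymes came to 775 to 859 TPM in depleted cells with LPS, against 1395 to 1415 TPM at 0 h, and to 1175 TPM in control cells with LPS, against 1310 to 1427 TPM at 0 h. In the control library left out, all members came to 428.7 TPM, the fatty acid enzymes to 214.4 TPM and the sterol enzymes to 141.7 TPM. Fdps alone read 299.5, 307.0 and 271.6 TPM in depleted cells with LPS and 513.5, 527.8 and 529.2 TPM in depleted cells at 0 h.

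LPS in control cells, with 1 library against 2, was followed by lower levels in fewer members. The lone library is assumed to vary like those of the other groups. Of the 32, 17 were lower and 2 higher (limma), against 44.1% of all genes lower and 14.8% higher. The median change of the members was -0.42, against -0.40 for all genes tested, and 16 of the 32 lay below that all-gene median. The list as a whole was thus close to the background here, but its parts differed. The 8 fatty acid enzymes had a median of -1.12, with 7 below the all-gene median. The 18 sterol enzymes had a median of -0.17, with 6 below it. By role, 7 of 8 fatty acid enzymes were lower, with 4 of 6 regulators, 3 of 7 mevalonate enzymes, 1 of 3 from squalene to lanosterol, and 2 of 8 from lanosterol to cholesterol, where 2 others were higher. With TMM scaling 12 were lower and 9 higher, against 26.6% and 26.1% of all genes. With all 10 libraries 0 were called in either direction, against 0.381% of all genes lower and 3.07% higher. There 0 members had an unadjusted p under 0.05, against 12.9% of all genes. The median member was at 0.42, against 0.21 for all genes, and 6 of the 17 genes called lower above were then above 0.

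Scd2 had the largest change here too, at 40.0 TPM in control cells with LPS, against 283.7 and 283.5 TPM in control cells at 0 h, a log2 change of -2.79 ± 0.09 (limma adjusted p = 2.86e-07). Dhcr7 followed at 7.69 TPM with LPS, against 37.3 and 47.2 TPM at 0 h, a log2 change of -2.31 ± 0.15 (limma adjusted p = 1.12e-05). Elovl6 read 2.64 TPM with LPS, against 11.96 and 13.6 TPM at 0 h, a log2 change of -1.92 ± 0.23 (limma adjusted p = 2.66e-04). In these genes the library with LPS was lower than both at 0 h, as it was for 23 of 32 members, against 62.9% of all genes. Scd1 fell by 1.46 ± 0.11, Fads1 by 1.18 ± 0.08 and Fasn by 1.05 ± 0.19 log2 units, with limma adjusted p-values of 1.95e-05, 1.55e-05 and 0.00182. Srebf1 read 32.6 TPM with LPS, against 65.0 and 76.2 TPM at 0 h, a log2 change of -1.09 ± 0.17 (limma adjusted p = 0.00104). Acat2 changed by -1.06 ± 0.09, Fads2 by -0.93 ± 0.14, Acaca by -0.90 ± 0.12, Ebp by -0.86 ± 0.19 and Sqle by -0.74 ± 0.07.

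The 2 members that rose in control cells act late in the sterol route. Hsd17b7 read 29.2 TPM with LPS, against 15.8 and 18.3 TPM at 0 h, a log2 change of 0.74 ± 0.19 (limma adjusted p = 0.0123). Sc5d read 61.2 TPM with LPS, against 43.7 and 41.1 TPM at 0 h, a log2 change of 0.52 ± 0.11 (limma adjusted p = 0.00468). Without control replicate 3 at 0 h, the calls of Mvk, Mvd and Scap were lost, with adjusted p-values of 0.0686, 0.0536 and 0.0778. Of the regulators, Scap was at -0.67 ± 0.20 (limma adjusted p = 0.0201) and Insig1 at -0.49 ± 0.07 (limma adjusted p = 7.12e-04), while Srebf2 at -0.05 and Insig2 at 0.18 did not pass (limma adjusted p = 0.811 and 0.458).

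**Figure D3:**
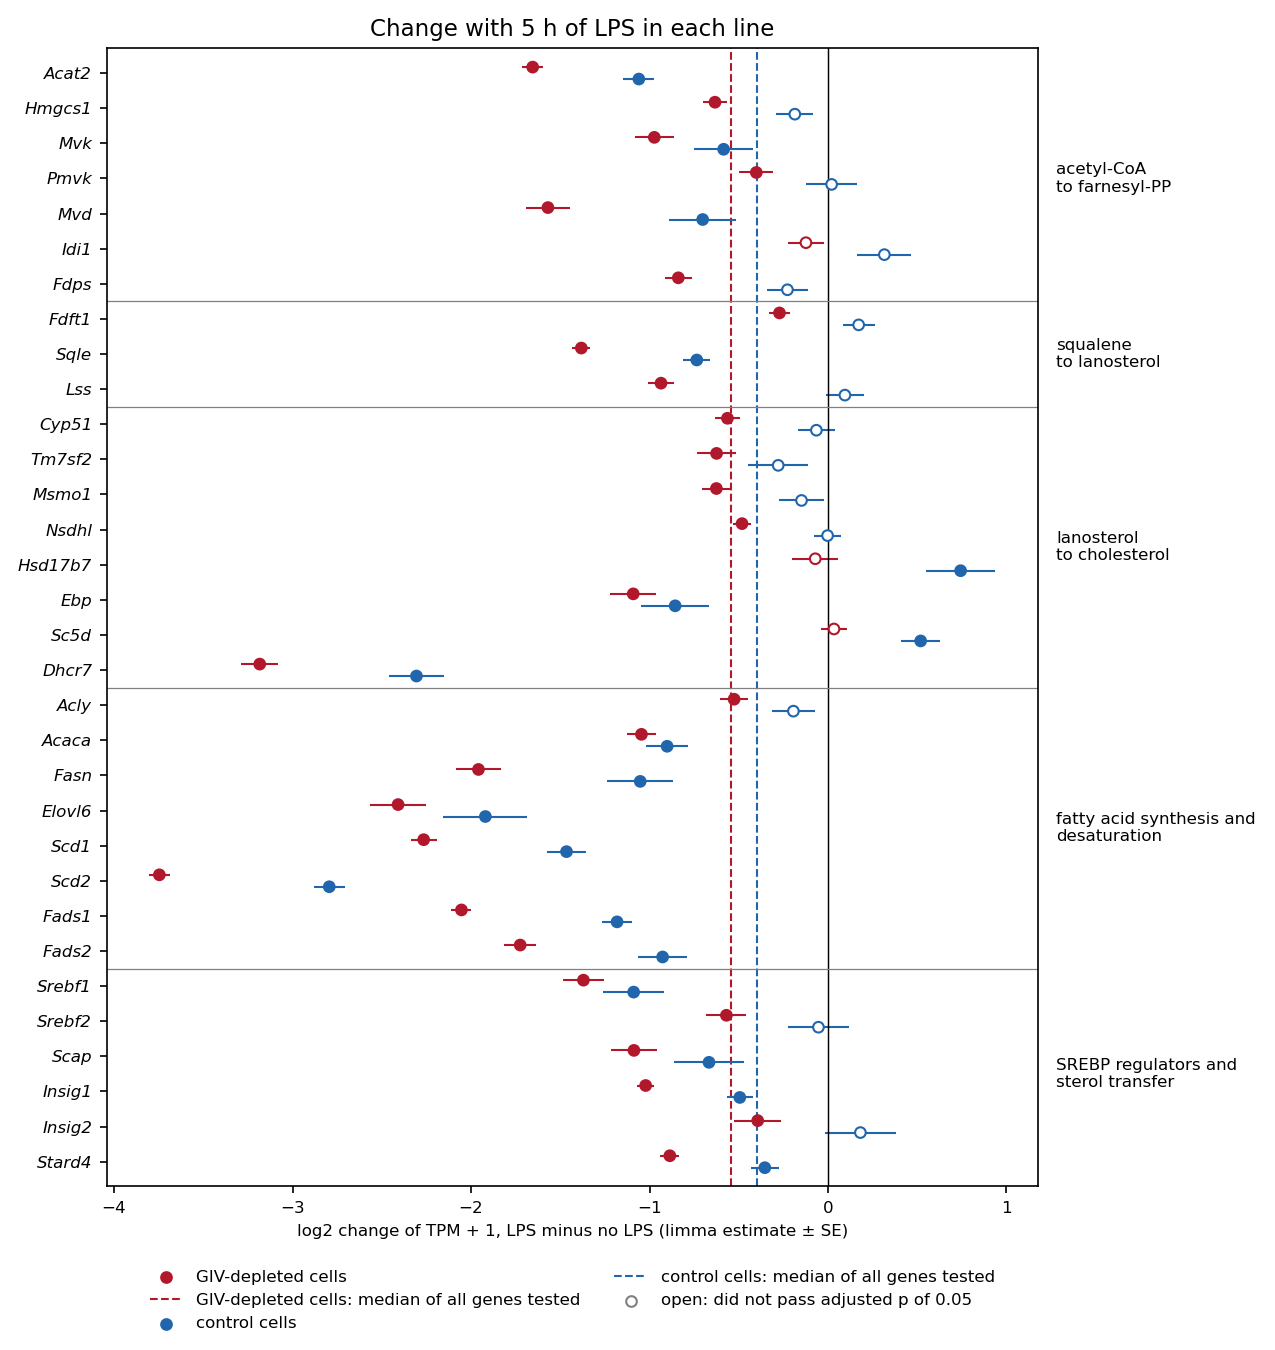
Log2 change with LPS of each of the 32 members in GIV-depleted cells and in control cells, ordered by role, with bars of 1 standard error from the limma fit, open points for changes that did not pass the threshold, and dashed lines at the medians of all genes tested. Scd2 had the lowest change in both lines, at -3.75 in depleted cells and -2.79 in control cells. Each point for depleted cells lies to the left of the point for control cells.

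Side by side, the order of the members was alike in the 2 lines. Over the 32 members the changes with LPS in depleted and in control cells, which share no library, had a Pearson r of 0.97 and a Spearman rho of 0.96, against 0.894 and 0.853 over all genes. With all 10 libraries they were 0.929 and 0.916, against 0.800 and 0.696 over all genes. All members were read in the same libraries of each line, so these are descriptions with no test. The median member with LPS stood at 50.3% of its resting level in depleted cells and 73.9% in control cells, against 62.9% and 70.3% for all genes. With all 10 libraries the median member of control cells stood at 102%, against 92.8% for all genes. Fasn was at 25.1% in depleted cells and 47.4% in control cells, Mvd at 32.7% and 60.4%, Srebf1 at 38.0% and 46.1%, and Lss at 51.2% and 107%.

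Without LPS, GIV depletion changed no member past the threshold. None of the 32 was called in limma, against 1.22% of all genes. Insig1 and Acat2, 2 of the 32, had an unadjusted p under 0.05, against 12.2% of all genes. Over the members, depleted cells stood at 88.3% to 116% of control cells, with log2 differences of -0.18 to 0.22 and a median of 0.01, against 0.02 for all genes. Insig1 read 56.3, 57.9 and 57.8 TPM in depleted cells and 65.6 and 64.3 TPM in control cells, a log2 difference of -0.18 ± 0.05 (limma adjusted p = 0.238). Acat2 read 45.6, 45.8 and 44.6 TPM in depleted cells and 51.5 and 50.6 TPM in control cells, a log2 difference of -0.17 ± 0.06 (limma adjusted p = 0.364). In both genes the lines did not overlap, which also held, with depleted cells lower, for Scd2, against 12.7% of all genes. Srebf1 was at -0.01 ± 0.13, Srebf2 at 0.18 ± 0.13, Scap at 0.16 ± 0.15 and Insig2 at 0.04 ± 0.15, with limma adjusted p-values of 0.993, 0.613, 0.728 and 0.947. A p that misses the threshold does not show that the lines were alike. With all 10 libraries the median member was at 0.85, against 0.64 for all genes. There 0 members were called, against 0% of all genes, and 0 had an unadjusted p under 0.05, against 2.93% of all genes.

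With LPS, 14 members were lower in GIV-depleted cells than in the 1 control library, and 18 did not pass the test. Of the 32, 14 passed the test lower and 0 higher (limma), against 4.38% of all genes lower and 0.89% higher. All 32 differences were below 0, against 67.8% of all genes, with 32 below 0 under TMM and 31 under quantile normalization. They ranged from -1.04 to -0.16 with a median of -0.52, against a median of -0.12 for all genes. For 31 of the 32, all 3 depleted libraries lay below the 1 control library, against 48.7% of all genes, and the exception was Ebp. With the set number in the titles as a block, 4 of the 14 stayed lower (Scd2, Fads1, Insig1 and Lss), against 0.445% of all genes. The median member in depleted cells stood at 69.2% of control cells, from 45.3% for Dhcr7 to 89.0% for Acaca, against 90.3% for all genes.

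The 14 lower members came from every role. They were Acat2 and Fdps of the mevalonate enzymes, Fdft1 (squalene synthase), Sqle and Lss from squalene to lanosterol, Nsdhl (a sterol dehydrogenase), Sc5d and Dhcr7 after lanosterol, Scd1, Scd2, Fads1 and Fads2 of the fatty acid enzymes, and Insig1 and Stard4 of the regulators. Sc5d, at -0.47 ± 0.10, and Stard4, at -0.48 ± 0.07, lie outside the rule for named genes and were named after their values were seen (limma adjusted p = 0.0480 and 0.0149). Lss read 19.4, 20.0 and 22.3 TPM in depleted cells with LPS, against 43.3 TPM in control cells with LPS, a log2 difference of -1.04 ± 0.10 (limma adjusted p = 0.00319). Scd2 read 20.2, 20.4 and 18.03 TPM in depleted cells, against 40.0 TPM in control cells, a log2 difference of -1.001 ± 0.08 (limma adjusted p = 0.00231). Dhcr7 read 3.67, 3.63 and 3.14 TPM in depleted cells, against 7.69 TPM in control cells, a log2 difference of -0.96 ± 0.14 (limma adjusted p = 0.0137). These 3 genes stood in depleted cells at 47.5%, 48.8% and 45.3% of the control library.

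Scd1 was at -0.80 ± 0.10, Fads1 at -0.79 ± 0.08 and Fads2 at -0.65 ± 0.13 (limma adjusted p = 0.00893, 0.00369 and 0.0318). Acat2 was at -0.76 ± 0.08, Sqle at -0.62 ± 0.07, Nsdhl at -0.52 ± 0.07, Fdft1 at -0.51 ± 0.08 and Fdps at -0.49 ± 0.11 (limma adjusted p = 0.00497, 0.00642, 0.00992, 0.0184 and 0.0465). Insig1 read 28.7, 27.0 and 27.5 TPM in depleted cells, against 45.8 TPM in control cells, a log2 difference of -0.70 ± 0.07 (limma adjusted p = 0.00354). All of these genes were lower in each depleted library. Srebf1 at -0.29 ± 0.16, Srebf2 at -0.33 ± 0.16, Scap at -0.26 ± 0.19 and Insig2 at -0.53 ± 0.19 did not pass (limma adjusted p = 0.346, 0.276, 0.467 and 0.149). The calls of Fdps, Fads2 and Sc5d were lost in 6, 5 and 5 of the 8 fits that left out 1 library, with adjusted p-values of up to 0.103, 0.0669 and 0.114. With all 10 libraries 0 members were called, against 0% of all genes, and 0 had an unadjusted p under 0.05, against 1.59% of all genes. The differences themselves do not use the added library, and their median stayed at -0.52.

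**Figure D4:**
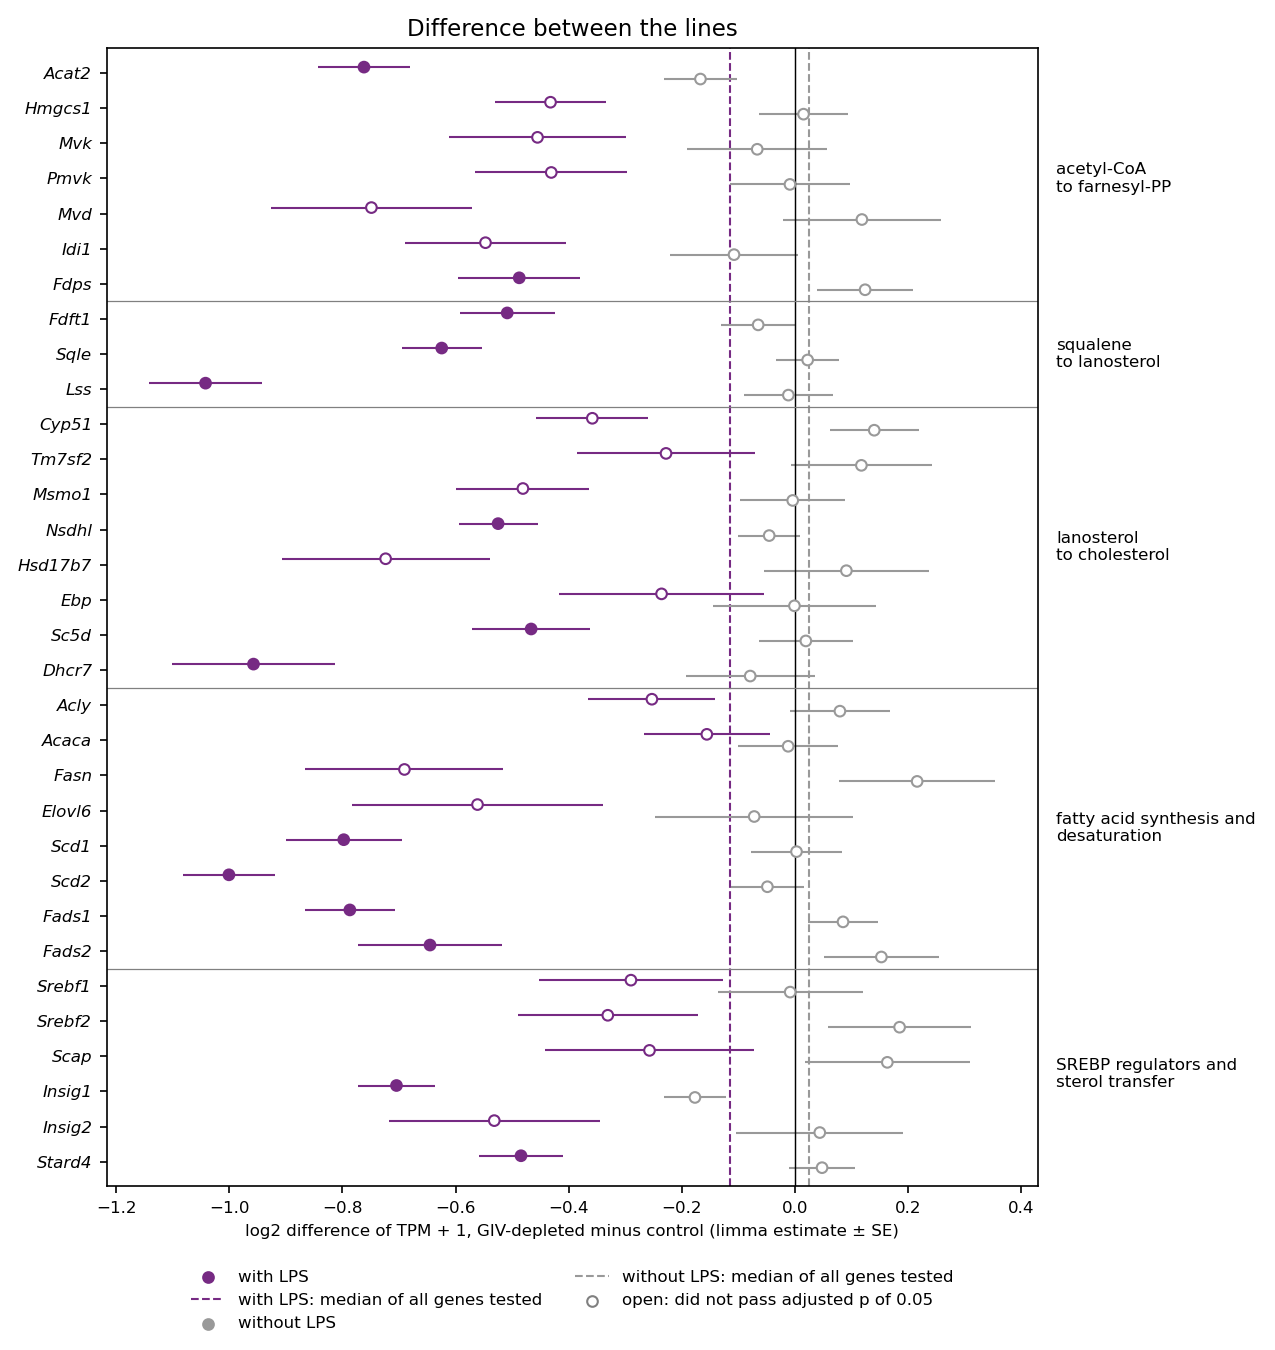
Log2 difference of GIV-depleted from control cells for each of the 32 members, with LPS and at 0 h, ordered by role, with bars of 1 standard error from the limma fit, open points for differences that did not pass the threshold, and dashed lines at the medians of all genes tested. With LPS the points lie between -1.04 and -0.16, and at 0 h between -0.18 and 0.22.

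The response to LPS itself differed between the lines for 3 members, each lower in depleted cells. They were Lss at -1.03 ± 0.13, Scd2 at -0.95 ± 0.10 and Fads1 at -0.87 ± 0.10 log2 units (limma adjusted p = 0.0370, 0.0281 and 0.0318), against 0.131% of all genes lower and 0.0948% higher. Lss was at 39.5, 39.7 and 41.3 TPM in depleted cells at 0 h and at 42.6 and 38.5 TPM in control cells at 0 h, a log2 difference of -0.01 ± 0.08 (limma adjusted p = 0.979). Leaving out 1 library ended these calls in 8 of 8 fits for Lss and in 7 of 8 for Scd2 and for Fads1, with adjusted p-values of up to 0.132, 0.109 and 0.132, and with all 10 libraries 0 were called and 0 had an unadjusted p under 0.05. With the set number as a block 0 were called, against 0% of all genes, and 22 had an unadjusted p under 0.05, against 13.3% of all genes. With all 10 libraries 0% of all genes were called and 1.62% had an unadjusted p under 0.05. All 32 differences of response were below 0 (31 with quantile normalization), against 70.1% of all genes, with a median of -0.51, against -0.15, and with all 10 libraries the median was -1.46, against -0.80. The 4 comparisons share libraries, so this sign is not a separate observation from the comparison with LPS. Srebf1 was at -0.28, Srebf2 at -0.52, Scap at -0.42, Insig1 at -0.53 and Insig2 at -0.58 log2 units, none past the threshold (limma adjusted p = 0.515, 0.253, 0.402, 0.0670 and 0.273).

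Other genes of the pathway were read from 5 lists, and each change named here passed the limma test. Over all genes, 59.7% were lower and 15.8% higher with LPS in depleted cells, 44.1% and 14.8% in control cells, and 4.38% were lower in depleted than in control cells with LPS, and the counts of these lists are to be read against those shares. Of 8 other sterol and isoprenoid enzymes, 5 were lower and 1 higher with LPS in depleted cells and 5 lower and 1 higher in control cells, and 1 was lower in depleted than in control cells with LPS. Lbr, a sterol reductase that can serve the same step as Tm7sf2, was at 18.7 to 20.0 TPM in depleted cells with LPS, against 60.3 to 61.2 TPM at 0 h, and at 21.7 TPM in control cells with LPS, against 49.9 and 54.7 TPM at 0 h. Of 10 genes of SREBP processing and sterol-regulated degradation, 7 were lower and 3 higher in depleted cells and 4 lower and 3 higher in control cells, and 2 were lower in depleted than in control cells with LPS. Only 4 of the 10 lay below the all-gene median change in depleted cells and 2 of 10 in control cells. Mbtps1, the site-1 protease that cleaves SREBP, changed by -1.22 with LPS in depleted cells and was lower by 0.69 log2 units in depleted than in control cells with LPS, where it read 15.9, 15.1 and 12.50 TPM against 23.8 TPM. Of 11 genes of sterol uptake, transport and other SREBP targets, 10 were tested: 8 were lower and 1 higher in depleted cells and 5 lower and 2 higher in control cells, and 2 were lower in depleted than in control cells with LPS. Lpin1, a phosphatidate phosphatase, changed by -2.32 with LPS in depleted cells and -2.14 in control cells, and Npc1, which exports cholesterol from lysosomes, differed by -0.72 between depleted and control cells with LPS.

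Of 16 genes of fatty acid elongation and activation, 14 were tested: 8 were lower and 2 higher with LPS in depleted cells and 8 lower and 3 higher in control cells, and 4 were lower in depleted than in control cells with LPS. In both lines 8 of the 14 lay below the all-gene median change. The elongase Elovl5 changed by -2.22 with LPS in depleted cells and -1.94 in control cells. Of the 5 oxysterol and sterol ester genes, 4 were tested: 2 were lower and 1 higher in depleted cells, with the same counts in control cells, and 1 was lower in depleted than in control cells with LPS. Cyp27a1, the sterol 27-hydroxylase, changed by -2.67 in depleted cells and -2.60 in control cells. Ch25h, which makes 25-hydroxycholesterol, was near the limit of the measurement, at 1.26, 1.46 and 0.99 TPM in depleted cells with LPS, 0, 0 and 0.0731 TPM in depleted cells at 0 h, 1.34 TPM in control cells with LPS, and listed at 0 in both control libraries at 0 h. Soat1, which esterifies cholesterol, read 133.9, 134.7 and 135.5 TPM in depleted cells with LPS, against 205.6 TPM in control cells with LPS, a log2 difference of -0.61. None of the genes of the 5 lists was called at 0 h or in the difference of the responses.

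Some members share sequence with other genes, so reads could be split between them. The largest shares of 31-base words also found in any other gene were 43.8% for Acat2 (Acat3), 33.5% for Acaca (Gm5182), 31.9% for Fdft1 (Ctsb), 27.9% for Fdps (Gm43738) and 27.1% for Idi1 (Gm13502). The gene in brackets is the one that shared the most words, and it need not hold the whole share. For Fdft1, Ctsb held 744 of 1348 shared words, and for Idi1, Gm13502 held 654 of 961. The values of these 5 are less certain than those of Fads1, Fasn and Nsdhl, of which no word was shared, and of Lss and Dhcr7, at 3.29% and 2.76%.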

How the data were processed

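Libraries were ribosome-depleted, stranded total RNA sequenced as paired reads of 100 bases, per the labels' protocols. The authors deposited log2(TPM + 1) values per gene; kallisto 0.45.0 and build GRCm38 are named in the submitters' processing notes. TPM were recovered from these log2 values by removing the 1. Of 11 labelled samples, 10 had a column and 9 were used. In R 4.3.3, limma 3.58.1 fitted the deposited log2 values of the 9 libraries in 4 groups (5 residual degrees of freedom, mean-variance trend), over 13711 genes with a log2 value of at least 1 in at least 2 libraries, with Benjamini-Hochberg adjustment over all of them and a threshold of 0.05. Fold changes are on the log2(TPM + 1) scale, which understates low genes. The script was tested on simulated data. The members and lists were chosen with earlier results of these data known. Up to 12 members past the threshold per direction and comparison are named with their changes, and Srebf1, Srebf2, Scap, Insig1 and Insig2 always; where no member passed, the 2 with the smallest p; of the other lists up to 3. Gene annotation was GENCODE M21, and promoters were RefSeq. The alternatives were a pseudocount of 0.1, quantile and TMM scaling, a filter at 3 or none, the replicate number as a block, all 10 libraries, and each library left out in turn.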

Additional observations from a re-analysis of the deposited data

Results flagged for a closer look

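For 3 members the difference between the LPS responses of the 2 lines passed the limma test, each with depleted cells lower. Lss differed by -1.03 log2 units, with a change of -0.94 in depleted cells and 0.09 in control cells. Scd2 differed by -0.95, with -3.75 in depleted cells and -2.79 in control cells. Fads1 differed by -0.87, with -2.05 in depleted cells and -1.18 in control cells. Each of these rests on the 1 control library with LPS. Over 15 alternatives, Lss stayed past the threshold in 3, Scd2 in 5 and Fads1 in 6, with adjusted p-values of 0.0147 to 0.715, 0.00633 to 0.715 and 0.00771 to 0.715.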

How the results depend on the processing

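Numbers of members called are given for depleted cells with LPS against 0 h first. With all 10 libraries 5 were lower, with TMM 19 lower and 4 higher, and with quantile normalization 3 higher, against 10.4%, 35.6%, 31.4% and 27.5% of all genes. For control cells, all 10 libraries gave 0 lower and 0 higher, TMM 9 higher and quantile 4 higher, against 0.381%, 3.07%, 26.1% and 21.8% of all genes. For depletion with LPS, the set number as a block gave 4 lower (Scd2, Fads1, Insig1 and Lss, against 0.445% of all genes) and all 10 libraries 0. For the difference of responses, 9 were lower with no filter, 5 with the filter at 3 and 1 with quantile normalization, against 1.05%, 0.601% and 0.102% of all genes, and 0 with the block and with all 10 libraries; leaving out 1 library gave 0 to 1. Over all genes, 10349 were called in depleted cells (2236 with all 10 libraries), 8075 in control cells (481), 722 for depletion with LPS (83 with the block, 0 with all 10, 325 to 953 leaving out 1 library), 167 for depletion at 0 h (306 with quantile, 58 with the block, 0 with all 10, 58 to 167 leaving out 1) and 31 for the difference (87 with TMM, 360 with no filter, 73 with the filter at 3, 0 with the block and all 10, 0 to 21 leaving out 1).

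Among values of genes named by the rule, directions turned as follows. In depleted cells with LPS, Srebf2 was at 0.012 and Insig2 at 0.16 with TMM, and Insig2 at 0.20 with quantile. In control cells with all 10 libraries, Sqle was at 0.35, Ebp at 0.074, Srebf2 at 0.59 and Insig1 at 0.56; Srebf2 was at 0.38 with TMM, and at -0.21 to 0.10 leaving out 1 library (0.10 without control replicate 3 at 0 h). For depletion at 0 h, all 10 libraries put Acat2 at 0.88, Srebf1 at 0.39 and Insig1 at 0.88; Srebf1 was at 0.0017 with TMM. Leaving out 1 library put Srebf1 at -0.12 to 0.10, Insig2 at -0.049 to 0.14 and Scap at -0.015 to 0.34, with the sign turned for Srebf1 without depleted replicate 1 or control replicate 3, for Insig2 without depleted replicate 1 (-0.0024) or control replicate 1, and for Scap without control replicate 1. Among other called members, TMM put Fdft1 at 0.30, Pmvk at 0.17, Nsdhl at 0.094, Acly at 0.057 and Cyp51 at 0.012 in depleted cells with LPS and Stard4 at 0.066 in control cells; quantile normalization put Fdft1 at 0.17 and Stard4 at 0.019; all 10 libraries put Mvk at 0.39, Mvd at 0.35 and Stard4 at 0.29 in control cells. The causes were not tested. Of 982 values of named genes under alternatives, 859 kept direction and call.

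In depleted cells, the deviation of each tested gene from its group mean was correlated between libraries with LPS and libraries at 0 h. Deviations of same-numbered libraries correlated at 0.0617, 0.0715 and 0.097, each best with its own number, and differently numbered ones at -0.0707 to -0.00424. The deviations cancel within a group, so the negative values are partly forced by the positive ones and are not separate observations. They do not describe how alike the libraries were as a whole. The titles call the number a set without saying what a set shares. Whether it marks a batch is therefore not known, and the block is given as an alternative. Depth is unknown, and 1 control library carries each comparison with LPS between lines.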
